A study of Mus musculus with 6 samples.

Results

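The T cell receptor (TCR) complex and the proteins that first act on its signal were followed through 9 genes, taken by symbol from the deposited tables, each of which lists all of them. The genes are *Cd3d*, *Cd3e*, *Cd3g* and *Cd247* (signalling chains), *Cd4* (coreceptor), *Lck* and *Zap70* (tyrosine kinases), and *Lat* and *Lcp2* (adaptors). They are 9 of the 35602 genes of the count table, and all 9 were among the 16269 genes with enough counts to be tested. The TCR has no kinase activity of its own. When it binds antigen, or when antibodies crosslink CD3, Lck phosphorylates tyrosine motifs on the CD3 chains and on the zeta chain encoded by *Cd247*, and Zap70 docks there. Zap70 then phosphorylates Lat and SLP-76, the product of *Lcp2*, which assemble the complex that starts calcium, Ras and NF-kB signalling.

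Mouse splenic CD4+ T cells had been stimulated with anti-CD3/CD28 and cultured with MAPK13-IN-1, an inhibitor of the kinase Mapk13, or with its solvent DMSO, and RNA-seq covered 3 libraries per group. The design text gives 72 h of stimulation with inhibitor present. For replicates 2 and 3 the labels describe wild-type cells with 17.1 µM inhibitor, or DMSO, added after day 1, whereas for replicate 1 they give no dose, genotype or day. Both groups were stimulated, so resting cells were not compared, and strain, sex and age are not labelled. Replicates 2 and 3 were deposited as raw counts, with totals of 26874805 and 28487403 for DMSO and 33854760 and 32617702 for the inhibitor. They are shown as CPM, the edgeR measure of counts scaled to library size, here with TMM factors. Replicate 1 of each group came from another library kit and holds 1 normalised value per gene, read as FPKM (fragments per length of gene and depth of library). That unit was inferred here from the values. Its depth is unknown, so this pair is described by its values without a test. Nothing in the labels says that replicates 2 and 3 are separate mice or cultures, so p-values measure only the spread between these libraries, which may be technical.

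The labelled cell type was checked against markers. *Cd3e* had 1240 to 2804 reads per library and *Cd4* 7084 to 9594, whereas *Cd8a*, which marks the other main T cell lineage, lay between 0.761 and 2.99 CPM. The study's methods name a commercial isolation kit for splenic CD4+ T cells, a step meant to remove other cells, but B cell transcripts were abundant in the count-table libraries. Per length of annotated exon, 11 B cell markers summed to 477 and 472 CPM per kb with DMSO and 495 and 500 CPM per kb with the inhibitor. On the same scale 8 T lineage markers outside the receptor summed to 449 and 459 CPM per kb with DMSO and 236 and 257 CPM per kb with the inhibitor. The lists differ in length, so their sums do not rank the cell types, but the T lineage sum was lower in both inhibitor libraries while the B cell sum was slightly higher. Between the replicate 1 libraries, where FPKM is already per length, the B cell markers summed to 52.4 and 36.6 FPKM and the T lineage markers to 725 and 730 FPKM (DMSO, then inhibitor), so B cell transcripts were far lower beside T cell transcripts there. In bulk RNA, fewer T cells and less of a transcript per T cell cannot be told apart.

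In MAPK13-inhibitors-treated cells 6 of the 9 genes fell (*Cd3d*, *Cd3e*, *Cd3g*, *Lck*, *Lat* and *Lcp2*), 0 rose and 3 did not pass (*Cd247*, *Cd4* and *Zap70*), by the edgeR quasi-likelihood test with the Benjamini-Hochberg adjusted p under 0.05. At an unadjusted p under 0.05, 1 gene was higher (*Cd247*), and DESeq2 called 0 higher. Many genes changed in these libraries. Of all 16269 tested, 63.8% were called, 32.3% as lower and 31.5% as higher, against 66.7% of the 9 genes as lower. A fall of at least 2-fold was called for 4 of the 9 and for 10.4% of all genes. The median log2 fold change was −0.71 for the 9 genes and 0.01 for all. Both inhibitor libraries lay below both DMSO libraries in 6 genes and above them in 2, and *Cd4* alone overlapped. Over all genes the groups did not overlap in 83.0%, with 41.4% lower and 41.7% higher.

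The replicate 1 pair differed less. A 1.5-fold lower value was seen for 1 of the 9 genes (*Lcp2*) and a 1.5-fold higher value for 0. Among all 34714 genes these shares were 2.54% and 6.15%, and among the 10448 with at least 1 FPKM in both libraries 7.47% and 13.8%. Lower values were also found here for 5 of the 6 genes that fell, against 56.8% of all genes called lower.

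**Figure D1:**
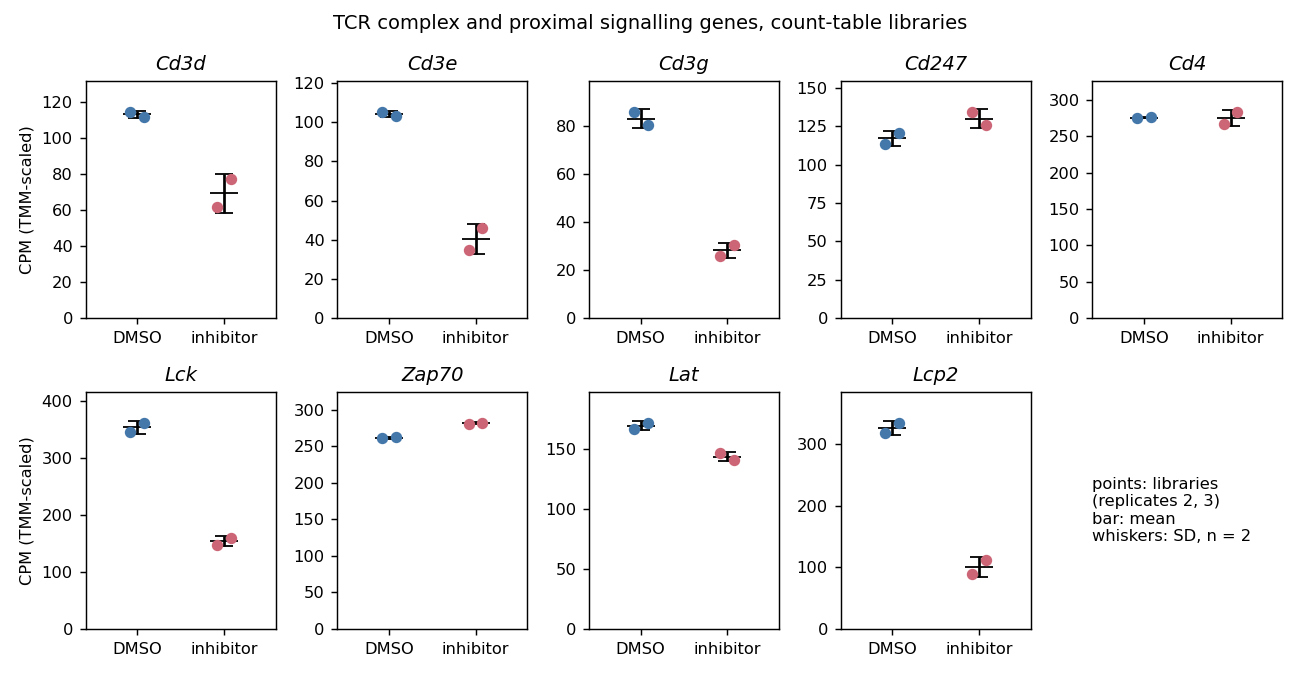
TMM-scaled CPM of the 9 genes in the 4 count-table libraries, with DMSO in blue and inhibitor in red. Points are libraries, the short horizontal bar is the mean and the whiskers are the SD of 2 libraries. The mean of *Cd3g* is 83.2 CPM with DMSO and 28.3 CPM with the inhibitor, and that of *Cd4* is 275 CPM in both.

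*Cd3g*, *Cd3e* and *Cd3d* encode the gamma, epsilon and delta chains, which pair with each other around the antigen-binding chains. *Cd3g* was at 85.9 and 80.4 CPM in the DMSO libraries and 26.0 and 30.5 CPM in the inhibitor libraries. Both inhibitor libraries were far below both DMSO libraries, a 2.94-fold fall (log2 fold change −1.56, SE 0.0886, edgeR quasi-likelihood adjusted p = 2.73e-07). *Cd3e* was at 105 and 103 CPM in the DMSO libraries and 34.9 and 45.8 CPM in the inhibitor libraries. The inhibitor libraries were again lower without overlap and lay further apart than the DMSO libraries (log2 fold change −1.37, SE 0.107, edgeR quasi-likelihood adjusted p = 2.05e-06). *Cd3d* was at 115 and 112 CPM in the DMSO libraries and 61.8 and 77.3 CPM in the inhibitor libraries. Its fall was smaller, to 61.3% of DMSO, again without overlap (log2 fold change −0.71, SE 0.0935, edgeR quasi-likelihood adjusted p = 8.17e-05). Replicate 1 showed little of this. There *Cd3d* was at 165 and 142 FPKM (DMSO, then inhibitor) and *Cd3e* at 74.6 and 70.2 FPKM, while *Cd3g* was higher with the inhibitor, at 155 and 166 FPKM.

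*Cd247* encodes the zeta chain, which carries most of the tyrosine motifs of the complex and is needed for its transport to the surface. It was at 114 and 120 CPM in the DMSO libraries and 134 and 126 CPM in the inhibitor libraries. The inhibitor libraries were slightly above the DMSO libraries without overlap, and the difference did not pass (log2 fold change 0.15, SE 0.0637, edgeR quasi-likelihood adjusted p = 0.0606, 95% interval by a normal approximation 0.025 to 0.27, narrower than this test would give). It passed as higher under 6 of 12 alternative settings, such as RLE scaling (0.16, edgeR adjusted p = 0.0443, range over the settings 0.000993 to 0.478). Replicate 1 had 50.5 and 68.9 FPKM. Zeta chain transcripts were thus lower in none of the inhibitor libraries than in the DMSO libraries beside them, unlike those of the other CD3 chains in the count table. The *Cd247* gene overlaps *Pou2f1* on the opposite strand over 12124 bases at its 3′ end. *Pou2f1* had 10649 counts in the 4 libraries, and use of strand in counting is not given in the sources used here, so reads of both could be mixed.

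The make-up of the CD3 transcripts, compared per length, differed between the groups. *Cd247* took 9.90% and 10.8% in the DMSO libraries and 25.2% and 20.2% in the inhibitor libraries of the summed level of the 4 chains. *Cd3g* took 33.4% and 32.1% in the DMSO libraries and 21.8% and 21.9% in the inhibitor libraries. The share of *Cd3e* went from 28.7% ± 0.153 to 21.7% ± 1.79 and that of *Cd3d* from 28.2% ± 0.111 to 33.8% ± 1.67 (mean ± SD, n = 2 libraries). No share overlapped between the groups, but with 2 libraries against 2 an exact permutation test cannot give a two-sided p below 0.333. Replicate 1 had shares of 11.3% and 15.4% for *Cd247* and 16.8% and 15.7% for *Cd3e* (DMSO, then inhibitor). The shares of *Cd3g* (34.8% and 37.1%) and *Cd3d* (37.1% and 31.7%) went the opposite way there.

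*Cd4* encodes the coreceptor that binds MHC class II and brings Lck to the receptor. It was at 275 and 276 CPM in the DMSO libraries and 267 and 283 CPM in the inhibitor libraries. The inhibitor libraries lay on either side of the DMSO libraries (edgeR quasi-likelihood adjusted p = 0.993). A 95% interval by a normal approximation for the log2 fold change was −0.11 to 0.11, narrower than this test would give. Replicate 1 had 118 and 146 FPKM. Per length, the ratio of *Cd4* to *Cd3e* was 1.23 and 1.26 with DMSO and 3.60 and 2.91 with the inhibitor, and in replicate 1 it was 1.58 and 2.08.

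*Lck*, the Src family kinase that phosphorylates the receptor chains, was at 346 and 363 CPM in the DMSO libraries and 148 and 161 CPM in the inhibitor libraries. Both inhibitor libraries were far below both DMSO libraries, and the mean was 43.5% of DMSO (log2 fold change −1.20, SE 0.0605, edgeR quasi-likelihood adjusted p = 1.40e-07). It was also lower in replicate 1, at 182 and 139 FPKM. *Zap70*, the Syk family kinase that binds the phosphorylated chains, was at 261 and 263 CPM in the DMSO libraries and 281 and 282 CPM in the inhibitor libraries. The inhibitor libraries were slightly higher without overlap, which did not pass (log2 fold change 0.11, SE 0.0512, edgeR quasi-likelihood adjusted p = 0.0931). *Zap70* passed as higher under 4 of 12 alternative settings, such as upper quartile scaling (0.19, edgeR adjusted p = 0.00870, range over the settings 0.00233 to 0.473), and replicate 1 had 88.3 and 94.0 FPKM. The per-length ratio of *Lck* to *Zap70* was 1.29 and 1.34 with DMSO and 0.509 and 0.551 with the inhibitor, so the more abundant kinase transcript differed between the groups. In replicate 1 the ratio was 2.06 and 1.48.

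*Lat* encodes the membrane-anchored scaffold that Zap70 phosphorylates. It was at 166 and 172 CPM in the DMSO libraries and 146 and 141 CPM in the inhibitor libraries. The inhibitor libraries were lower without overlap, by a small amount (log2 fold change −0.24, SE 0.0574, edgeR quasi-likelihood adjusted p = 0.00437). The call was lost without DMSO replicate 3 (−0.22, edgeR adjusted p = 0.0669) and with scaling by library totals (−0.11, edgeR adjusted p = 0.116, range over the settings 1.41e-06 to 0.116). Replicate 1 had 196 and 190 FPKM. *Lcp2*, whose product SLP-76 is the cytosolic partner of Lat, was at 318 and 335 CPM in the DMSO libraries and 89.3 and 112 CPM in the inhibitor libraries. Both inhibitor libraries were far below the DMSO libraries, a 3.24-fold fall and the largest of the 9 genes (log2 fold change −1.70, SE 0.0920, edgeR quasi-likelihood adjusted p = 2.02e-07). Replicate 1 had 170 and 92.3 FPKM, a log2 ratio of −0.87 on the log2(FPKM + 1) scale and also the largest there.

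The order of the members by level per length of annotated exon differed between the groups. With DMSO *Lck* was highest at 153 ± 4.97 CPM per kb (mean ± SD, n = 2), followed by *Lat* (136 ± 3.06), *Zap70* (117 ± 0.513) and *Cd4* (88.5 ± 0.216). *Cd3g* (81.3 ± 3.84) and *Lcp2* (78.0 ± 2.87) overlapped, as did *Cd3e* (71.3 ± 1.04) and *Cd3d* (70.1 ± 1.12), and *Cd247* was lowest at 25.7 ± 1.05. With the inhibitor *Zap70* was highest at 125 ± 0.405 CPM per kb, followed by *Lat* (115 ± 3.14), *Cd4* (88.5 ± 3.67), *Lck* (66.5 ± 3.92) and *Cd3d* (43.0 ± 6.78). The levels of *Cd247* (28.5 ± 1.35), *Cd3g* (27.6 ± 3.10), *Cd3e* (27.6 ± 5.25) and *Lcp2* (24.0 ± 3.83) came last and overlapped between neighbours. *Lat* was highest and *Cd247* lowest in both replicate 1 libraries, where *Lcp2* was in place 3 with DMSO and 7 with the inhibitor.

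T lineage markers outside the receptor were mostly lower, as were 6 of the 9 genes but not *Cd247*, *Cd4* or *Zap70*. Of 8 tested, 7 were lower and 1 was higher, with a median log2 fold change of −0.90. Across all genes tested 32.3% were lower and 31.5% higher. *Thy1*, a surface glycoprotein of mouse T cells, was at 182 and 190 CPM in the DMSO libraries and 52.2 and 68.3 CPM in the inhibitor libraries. *Cd2*, an adhesion molecule, was at 104 and 104 CPM in the DMSO libraries and 43.0 and 43.9 CPM in the inhibitor libraries. Both were lower in the inhibitor libraries without overlap, as were *Satb1*, a chromatin organiser (843 ± 2.58 and 404 ± 40.0 CPM), and *Cd28*, the costimulatory receptor (316 ± 7.69 and 220 ± 11.2 CPM, mean ± SD, n = 2). The 8 markers, of which *Satb1* had the highest CPM in each library, summed to 2010 and 2054 CPM with DMSO and 1120 and 1222 CPM with the inhibitor. Replicate 1 had 5 of the 8 lower and 3 higher, with a median log2 ratio of −0.25. The sum there was 725 and 730 FPKM, which includes a higher value of *Thy1* with the inhibitor (92.7 and 213 FPKM).

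B cell markers moved in both directions, with 6 of 11 higher, 3 lower and a median of 0.18, where 31.5% of all genes tested were higher and 32.3% lower. They summed to 1129 and 1108 CPM with DMSO and 1234 and 1263 CPM with the inhibitor. In replicate 1, 9 of 11 were lower and 2 higher. *Pax5*, the B lineage transcription factor and the highest of the list in both inhibitor libraries, was at 178 and 168 CPM in the DMSO libraries and 263 and 271 CPM in the inhibitor libraries. It rose, as did *Ms4a1*, which encodes CD20 (66.3 ± 0.0363 and 106 ± 2.78 CPM, mean ± SD, n = 2), whereas *Vpreb3*, a B cell chaperone, fell and was at 21.9 and 23.7 CPM in the DMSO libraries and 5.92 and 6.79 CPM in the inhibitor libraries. The part of T and B cell content in the changes of the 9 genes was not tested.

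**Figure D2:**
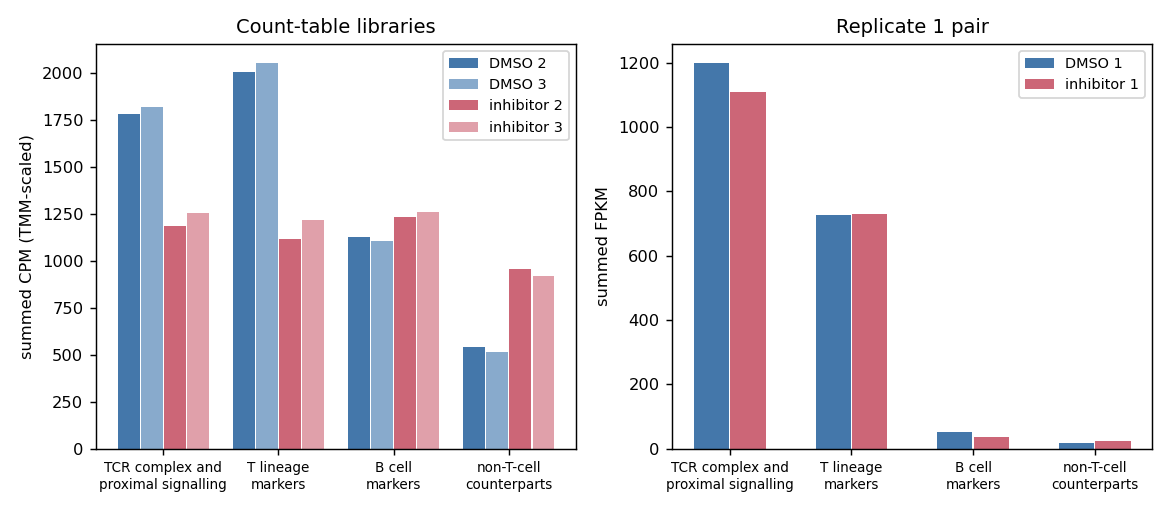
Summed expression of the 9 genes, of 8 T lineage markers, of 11 B cell markers and of 11 signalling genes that other leukocytes use in place of the T cell genes. Each bar is 1 library, with TMM-scaled CPM of the count-table libraries on the left and FPKM of the replicate 1 pair, normalised separately, on the right. The 9 genes sum to 1786 and 1824 CPM with DMSO and 1188 and 1258 CPM with the inhibitor, and to 1198 and 1108 FPKM in replicate 1.

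Other cell types were read from their markers in the same libraries, where 31.5% of all genes tested were higher and 32.3% lower. Of 9 myeloid markers tested, 7 were higher and 1 was lower, and the list of 11 summed to 107 and 102 CPM with DMSO and 165 and 155 CPM with the inhibitor (6.82 and 17.9 FPKM in replicate 1). *Mpeg1*, a pore-forming protein, had the most counts, at 63.4 and 58.2 CPM in the DMSO libraries and 69.5 and 75.8 CPM in the inhibitor libraries. *S100a9*, a neutrophil gene, was listed at 0 in all 4. The myeloid sum came mostly from *Mpeg1* and *Cybb*, and whether B cells contributed to it was not tested. *Csf1r*, named after its values were seen, had 8 and 6 counts with DMSO and 18 and 11 with the inhibitor and did not pass. *Cybb*, an oxidase subunit, was at 30.4 ± 1.28 and 48.8 ± 6.47 CPM, *Cd68* at 9.89 ± 0.826 and 26.8 ± 2.41 CPM, *Lyz2* at 0.623 ± 0.00327 and 4.40 ± 1.55 CPM and *Adgre1* at 0.474 ± 0.0979 and 2.69 ± 0.503 CPM (mean ± SD, n = 2). Erythroid genes were higher in 5 of 6 tested. Their list of 8 summed to 7.83 and 7.43 CPM with DMSO and 89.8 and 64.5 CPM with the inhibitor (0.928 and 1.93 FPKM in replicate 1). *Hbb-bs*, a beta globin, was the highest of the list in both inhibitor libraries, at 1.98 and 1.73 CPM in the DMSO libraries and 29.5 and 22.0 CPM in the inhibitor libraries, and *Hba-a1* (1.06 ± 0.0932 and 18.8 ± 4.97 CPM) and its near-identical copy *Hba-a2* (0.922 ± 0.152 and 14.6 ± 3.64 CPM) may share reads. Of the CD8 and NK genes *Cd8a* and *Cd8b1* were tested, and both were lower. The 5 genes of that list with a row summed to 11.3 ± 0.533 CPM with DMSO and 7.03 ± 1.45 CPM with the inhibitor (n = 2, 3.58 and 8.56 FPKM in replicate 1), mostly from *Cd8b1*. The part of these cells in the changes of the 9 genes was not tested.

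Activation markers were lower in 6 of 8 and higher in 1, against 32.3% and 31.5% of all genes tested. Which cells held these transcripts was not tested. The sums of these markers were 3339 and 3352 CPM with DMSO and 2028 and 2316 CPM with the inhibitor. In replicate 1 they summed to 1235 and 972 FPKM, but 4 were lower and 4 higher, with a median log2 ratio of 0.00236. *Il2ra*, the high-affinity IL-2 receptor chain, was at 963 and 963 CPM in the DMSO libraries and 368 and 430 CPM in the inhibitor libraries. *Tnfrsf4*, which encodes OX40, was at 277 and 271 CPM in the DMSO libraries and 72.1 and 90.0 CPM in the inhibitor libraries. Both fell, as did *Irf4*, a transcription factor graded by TCR signal strength (871 ± 2.93 and 554 ± 36.6 CPM), whereas *Cd44*, an adhesion receptor of activated cells, rose (168 ± 8.12 and 350 ± 15.4 CPM, mean ± SD, n = 2). *Il2ra* was the highest of the list in both DMSO libraries and *Irf4* in both inhibitor libraries. *Mapk13*, the target of the inhibitor, was at 3.06 and 2.72 CPM in the DMSO libraries and 0.592 and 1.51 CPM in the inhibitor libraries. It was lower there without overlap but higher with the inhibitor in replicate 1, at 0.191 and 3.28 FPKM. The part of activation state in the changes of the 9 genes was not tested.

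Of 25 proteins that act beside or downstream of the 9 genes, 9 were lower, 10 were higher (15 with scaling by library totals) and 6 did not pass. The median log2 fold change was 0.12, against 0.071 without DMSO replicate 3 and 0.24 with scaling by library totals. Of all 16269 genes tested 32.3% were lower and 31.5% higher, and 6176 were higher with scaling by library totals. *Prkcq*, the protein kinase C isoform of the T cell synapse, was at 69.3 and 65.6 CPM in the DMSO libraries and 28.5 and 30.2 CPM in the inhibitor libraries. It fell without overlap (log2 fold change −1.20, SE 0.0769, edgeR quasi-likelihood adjusted p = 5.59e-07), and was lower in replicate 1 (38.0 and 24.3 FPKM). *Ptprc*, the phosphatase CD45 that keeps Lck active, had the most counts and rose slightly (821 ± 16.4 and 905 ± 25.1 CPM, mean ± SD, n = 2), but was lower in replicate 1 (239 and 179 FPKM). Partners of Lat and SLP-76, chosen after their values were seen, went both ways. *Grap2* and *Vav1* fell (108 ± 1.84 and 66.5 ± 0.759 CPM and 177 ± 4.86 and 136 ± 8.64 CPM) while *Plcg1*, the phospholipase, rose (90.0 ± 3.01 and 113 ± 5.23 CPM). Also called higher were *Grb2*, *Grap*, *Sos1*, *Nck1* and *Fyb* (log2 fold changes 0.24, 0.64, 0.25, 0.68 and 0.57). Replicate 1 had 31.6 and 26.8 FPKM for *Grap2*, 30.7 and 30.4 FPKM for *Vav1* and 25.1 and 22.9 FPKM for *Plcg1*.

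**Figure D3:**
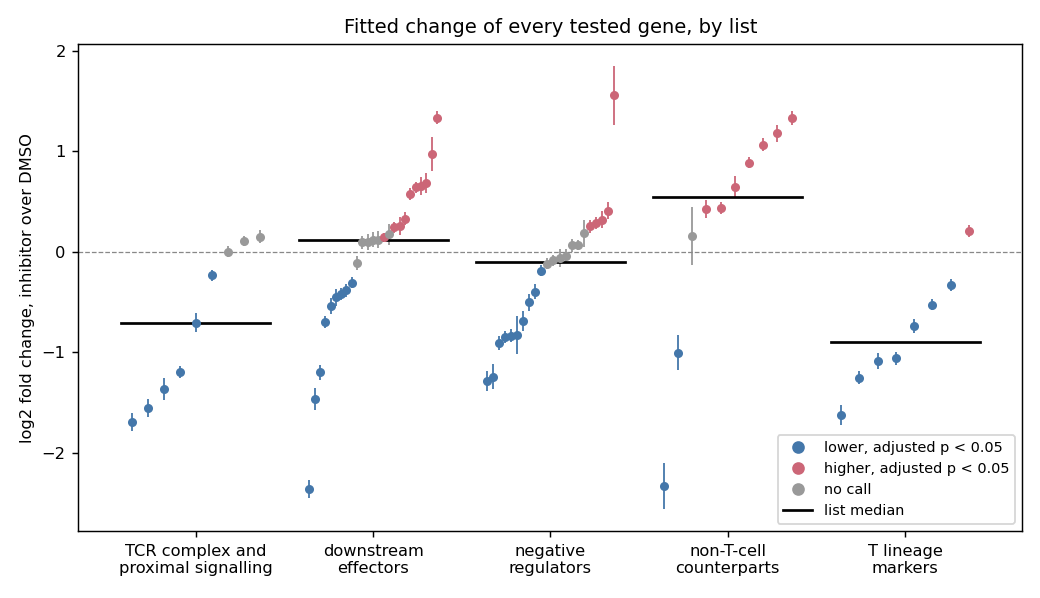
Fitted log2 fold change (inhibitor over DMSO) of every gene tested, by list, sorted within each list. Points are genes, whiskers are standard errors, colours give the call at an adjusted p under 0.05 and black lines are list medians. These are −0.71 for the 9 genes, 0.12 for downstream effectors, −0.10 for negative regulators, 0.54 for counterparts in other leukocytes and −0.90 for T lineage markers. With scaling by library totals they are 0.24 for downstream effectors and 0.023 for negative regulators.

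Genes that restrain TCR signalling were lower in 10 of 22, higher in 5 and did not pass in 7, with a median of −0.10 that became 0.023 with scaling by library totals. The number higher was 7 with that scaling and was smaller than 5 when DMSO replicate 3 was left out. Over all genes tested 63.8% were called, 32.3% lower and 31.5% higher, so the share called was near that of all genes. *Cd5*, a surface receptor whose level follows TCR signal strength, was at 426 and 439 CPM in the DMSO libraries and 154 and 200 CPM in the inhibitor libraries. It fell without overlap (log2 fold change −1.29, SE 0.0986, edgeR quasi-likelihood adjusted p = 1.76e-06), and replicate 1 had 262 and 193 FPKM. *Sla*, an adaptor that promotes degradation of the zeta chain, was at 159 and 164 CPM in the DMSO libraries and 88.1 and 91.6 CPM in the inhibitor libraries. It fell, and was lower in replicate 1 too (54.5 and 36.5 FPKM). *Map4k1*, the kinase HPK1 that acts on SLP-76, fell as well (131 ± 2.24 and 69.7 ± 5.26 CPM, mean ± SD, n = 2) but was higher with the inhibitor in replicate 1 (40.1 and 54.5 FPKM). *Ptpn6*, the phosphatase SHP-1, was at 310 ± 3.32 and 324 ± 8.42 CPM and did not pass (edgeR quasi-likelihood adjusted p = 0.276).

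B cells and myeloid cells use related proteins in the same positions, with Syk for Zap70, Blnk for SLP-76, Lat2 beside Lat, and Lyn or Blk for Lck. Of 11 such genes 10 were tested, and 7 were higher, 2 were lower and 1 did not pass, with a median of 0.54. Among all genes tested 31.5% were higher and 32.3% lower. *Syk* was at 246 and 239 CPM in the DMSO libraries and 458 and 439 CPM in the inhibitor libraries. *Blnk* was at 42.8 and 39.3 CPM in the DMSO libraries and 106 and 101 CPM in the inhibitor libraries. Both were higher in the inhibitor libraries without overlap, by log2 fold changes of 0.89 and 1.33 (edgeR quasi-likelihood adjusted p = 3.63e-07 and 2.06e-07). *Blk* (43.3 ± 0.134 and 90.6 ± 2.01 CPM) and *Plcg2*, the phospholipase of B cells (108 ± 3.28 and 145 ± 1.77 CPM), rose too (mean ± SD, n = 2). All 4 were low in replicate 1, where *Syk* had 3.46 and 3.40 FPKM and *Blnk* 2.64 and 2.17 FPKM. There *Blk* was lower with the inhibitor (1.81 and 1.05 FPKM) and *Plcg2* higher (2.49 and 6.21 FPKM).

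In the count-table libraries the share of 4 T cell members beside their relatives, per length within a library, was lower with the inhibitor. *Lcp2* made up 78.8% and 81.0% in the DMSO libraries and 29.7% and 35.8% in the inhibitor libraries of the level of *Lcp2* and *Blnk*. *Zap70* made up 74.0% and 74.7% in the DMSO libraries and 62.2% and 63.3% in the inhibitor libraries of *Zap70* and *Syk*. The groups did not overlap in either share, although *Zap70* itself was not lower. *Lck* took 61.1% and 61.7% in the DMSO libraries and 35.0% and 38.0% in the inhibitor libraries of 6 Src family kinases. *Fyn*, the other main Src kinase of T cells and named after its values were seen, went from 24.6% ± 0.251 to 27.2% ± 0.961 (mean ± SD, n = 2), although *Fyn* itself fell (log2 fold change −0.31, SE 0.0571, edgeR quasi-likelihood adjusted p = 0.000818). *Lat* changed least, with 90.4% and 91.5% in the DMSO libraries and 86.6% and 86.3% in the inhibitor libraries of *Lat* and *Lat2*. The T cell member made up most of the level in both replicate 1 libraries, with 98.5% and 97.7% for *Lcp2*, 96.2% and 96.5% for *Zap70* and 73.6% and 70.0% for *Lck*. The relatives are B cell transcripts as well, and the part of B cell content in these shares was not tested.

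*Cd3g*, *Cd3d* and *Cd3e*, which each fell in the count table by different amounts, lie in 1 cluster on chromosome 9 of GRCm38 (GENCODE M21). *Cd3g* is at chr9:44969572-44980431 on the minus strand, *Cd3d* at chr9:44981786-44987339 on the plus strand and *Cd3e* at chr9:44998740-45009627 on the minus strand. *Cd3g* and *Cd3d* are transcribed away from each other from starts 1355 bases apart, and by the RefSeq starts *Cd3d* and *Cd3e* begin 27825 bases apart. RefSeq promoters (GRCm38.p6) were matched for 8 of the 9 genes, all but *Cd4*. The 250 bases before the start of the clustered genes are shown because these neighbours all fell there, at chr9:44980432-44980681 (minus), chr9:44981536-44981785 (plus) and chr9:45009612-45009861 (minus). Capitals mark GGAAGT, a core bound by ETS factors, and the TCF/LEF core CTTTGAT with its variants, which are CTTTGAA in some sites and CTTTGTT in others, on either strand. The marked matches do not overlap.
Cd3g: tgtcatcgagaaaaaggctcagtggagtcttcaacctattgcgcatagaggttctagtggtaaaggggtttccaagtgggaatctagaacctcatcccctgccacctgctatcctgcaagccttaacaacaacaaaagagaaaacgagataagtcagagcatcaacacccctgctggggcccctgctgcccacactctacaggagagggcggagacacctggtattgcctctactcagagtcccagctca
Cd3d: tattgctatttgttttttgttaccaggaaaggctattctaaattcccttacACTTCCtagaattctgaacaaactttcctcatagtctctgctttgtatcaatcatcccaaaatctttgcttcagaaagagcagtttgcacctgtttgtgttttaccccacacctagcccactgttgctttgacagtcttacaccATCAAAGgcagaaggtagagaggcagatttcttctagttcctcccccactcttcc
Cd3e: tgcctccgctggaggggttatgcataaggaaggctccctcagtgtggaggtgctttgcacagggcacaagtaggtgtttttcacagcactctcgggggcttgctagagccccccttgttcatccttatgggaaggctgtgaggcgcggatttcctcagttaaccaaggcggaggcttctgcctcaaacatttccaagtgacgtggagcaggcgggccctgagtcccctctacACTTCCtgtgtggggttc
The ETS letters occur before *Cd3d*, starting 199 bases before its start, and before *Cd3e*, starting 18 bases before its start, and 0 times before *Cd3g*. Among other members the ETS letters occur before *Cd247* (58 bases before its start), at both *Lck* promoters (113 and 9) and at 1 of the *Zap70* promoters (202), so genes that fell and genes that did not pass both have them. The TCF/LEF letters occur before *Cd3d* alone of these 3, starting 55 bases before its start. Among other members 1 *Lck* promoter holds them, 94 bases before its start. Of 32851 RefSeq promoter windows of this length, 19.7% hold the ETS letters and 12.0% a TCF/LEF core. A match describes letters and not binding.

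The genes with the profile most like each member were found by Euclidean distance between log2(CPM + 0.5) profiles, each centred on its mean, over the 4 count-table libraries. The added 0.5 damps the changes of genes at low CPM. *Slc52a3*, for example, had a fitted log2 fold change of −1.77 at 3.30 and 0.970 CPM, against −1.37 for *Cd3e*. For the receptor chains the nearest genes were *Tfdp1* for *Cd3d* (distance 0.0274), *Slc52a3* for *Cd3e* (0.0342), *Mmp23* for *Cd3g* (0.0513) and *Zscan20* for *Cd247* (0.0102). For the coreceptor and its kinase they were *Tnrc6c* for *Cd4* (0.00951) and *Adarb1* for *Lck* (0.0155), and among adaptors *Gm46485* for *Lat* (0.0149) and *Gm32276* for *Lcp2* (0.0318). None of these nearest genes was another member.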

How the data were processed

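Libraries, 3 per group, were assigned to groups from the sample titles. Per the labels' processing notes, replicates 2 and 3 went through fastp 0.21.0, HISAT2 2.1.0, StringTie 2.1.5 and DESeq2 1.30.1 on mm10, and replicate 1 through FastQC and HISAT2. For replicates 2 and 3 the authors deposited raw counts per gene symbol, without normalisation. If they came from StringTie, which the notes name, they were derived from coverage rather than counted read by read. For replicate 1 the authors deposited 1 value per gene, read as FPKM from the values, which are not whole and sum to 405150 and 390729. Low values of the 2 tables shared no common step, so no depth was recovered.

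Testing used edgeR 4.0.16 under R 4.3.3, after filterByExpr (minimum count 10, minimum total 15) and TMM scaling. The groups, 2 libraries against 2, were compared with the quasi-likelihood test without covariates, with Benjamini-Hochberg adjustment over all 16269 genes. Replicates differed by more than sampling noise (mean chi-square per gene 3.08 in DMSO and 9.60 with the inhibitor). Exon lengths are unions of GENCODE M21 basic exons. Intervals are 95% by a normal approximation from the SE, which is narrower than the quasi-likelihood test would give. That of *Zap70*, for example, is 0.0056 to 0.21 and leaves out 0, at an edgeR quasi-likelihood unadjusted p = 0.0644. FPKM ratios used a pseudocount of 1 and understate changes of low genes.

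The 9 members and all gene lists were chosen with earlier results of these data known. Named genes are the 9 members, *Mapk13*, the 3 genes with the smallest p-values and the 2 with the highest CPM of each list, markers at 0 and the nearest profile of each member. Some genes that this rule names are not reported here. *Pou2f1* was named later as a gene that overlaps a member, and *Lat2* as a relative of *Lat*. Any other gene carries a remark on its later choice. Alternatives were RLE, upper quartile and library total scaling, no filter, at least 10 counts in every library, a replicate block, DESeq2 1.42.0, each library left out, an adjusted p of 0.01, a pseudocount of 0.1, at least 1 FPKM in both libraries and a fold of 2. No row was matched to the symbols *Trac*, *Trbc1*, *Trbc2*, *Trdc* and *Tcrg-C1*, which were not analysed here.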

Additional observations from a re-analysis of the deposited data

How the results depend on the processing

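*Cd3d*, *Cd3e*, *Cd3g*, *Lck* and *Lcp2* kept their direction and call under all 12 alternative settings, with log2 fold changes of −0.88 to −0.55, −1.58 to −1.19, −1.68 to −1.43, −1.27 to −1.08 and −1.88 to −1.54. The number of the 9 genes called lower was 5 or 6 throughout, *Lat* being the gene that was lost. The number called higher was 0 with TMM, 1 with RLE, 2 with upper quartile, library total scaling or at least 10 counts in every library, and 0 to 1 with each library left out. Library total scaling moved the median of all tested genes by 0.13. *Cd4* was above 0 with DESeq2 (0.0079), RLE (0.013), the filter of 10 counts (0.044), upper quartile (0.080) and library totals (0.12), and between −0.050 and 0.041 with each library left out, without passing in any of them. The replicate numbers 2 and 3 were not found to pair the samples, since the differences between replicates correlated at −0.0064 between groups over 16269 genes. With the replicate number as a block 6 of the 9 genes were lower and 1 was higher, *Cd247* at 0.15 (adjusted p = 0.0422 from edgeR), and 5384 and 5261 of all genes were called lower and higher.

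The median of the downstream effectors was 0.16 with the filter of 10 counts, 0.20 with upper quartile and 0.24 with library totals, and 0.071 to 0.13 with each library left out. That of the negative regulators was −0.058, −0.022 and 0.023 in the same settings and −0.13 to −0.10 with each library left out, when 3 to 6 of them were higher (3 without DMSO replicate 3). That of the counterparts of other leukocytes was 0.44 with DESeq2, 0.43 without a filter, 0.62 with upper quartile and 0.66 with library totals. In the replicate 1 pair 0 genes passed a fold of 2, against 1 for a fold of 1.5. The highest member per length was 5.99 and 5.92 times the lowest in the DMSO libraries and 5.87 and 4.70 times in the inhibitor libraries, and 3.87 and 2.76 times in the replicate 1 pair. The cause of these changes was not tested. With a library left out 1 group has a lone sample, assumed to vary like the other group. Depth did not limit the members, each with at least 924 counts per library, but there are 2 libraries per group.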
